A study of Mus musculus with 14 samples.

Results

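The genes described here encode the proteins of the cytosolic ribosome. Members were the genes whose symbol begins Rpl, Rps or Rplp followed by a number, without those beginning Rps6k and without pseudogene symbols. Only probe sets annotated with 1 gene were used. This gave 49 of the 18194 genes on the array: 42 canonical ribosomal proteins, 6 paralogues (Rpl3l, Rpl7l1, Rpl22l1, Rpl39l, Rps4l and Rps27l) and Rps19bp1, which the symbol rule admits although it encodes a protein that binds Rps19 and is not part of the ribosome. Each gene was represented by its probe set with the highest mean over the 14 arrays, and the same comparisons were repeated without the probe sets whose names end in _s_at or _x_at. RefSeq lists 88 protein-coding mouse genes under the same rule. Of these, 48 were measured by a probe set of their own, 31 were named only on probe sets annotated with several genes, Rpl3, Rpl5 and Rplp1 among them, and 9 on no listed probe set, and these are not analysed here.

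RNA from heart and hippocampus of C57/BL6 mice at 2 ages was hybridized to Affymetrix mouse arrays. Pups were 7 days old and gave 3 samples of each tissue, 1 array per sample. Adults were males of 10 weeks and gave 2 samples of each tissue, every one of them run on a pair of arrays whose values were averaged. This follows the sample titles, whereas the source names number the 4 adult arrays of a tissue as separate biological replicates, and the labels do not settle which holds. With every adult array as a replicate, 32 members were lower in adult heart and 26 in adult hippocampus. The share of all genes called in that fit is not given here, so these counts have no background to be read against. No group carried a transgene or received a treatment, and the labels do not give the sex of the pups. Pup tissue was dissected and its mRNA isolated for the study, whereas adult RNA was bought from a supplier and is called mRNA in one place and total RNA in another, so age cannot be told apart from RNA source and preparation in any adult against pup comparison. Nothing in the labels ties the 2 adult samples of a tissue to different animals. The adult part of the spread behind each p-value may therefore be technical. Pup samples also enter that spread, since the fit shares it over all 4 groups. The tissues were bulk, in which fewer cells of a type and less RNA per cell cannot be told apart.

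Ribosomal proteins assemble with ribosomal RNA into a small subunit, which reads the mRNA, and a large subunit, which joins amino acids. Their mRNAs belong to a class that begins with a run of pyrimidines at the 5′ end, the TOP mRNAs, whose translation follows growth signals through mTOR and is raised in growing tissue. Ribosomal protein genes have left many processed pseudogenes in mammalian genomes, so that array probes for them can match several near-identical transcripts. A gene called here by its symbol is therefore uncertain where its probe set type allows such matches.

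All values are on the log2 scale as deposited, and a difference of 1 is a doubling of signal on the array. A gene was called higher or lower where its difference had an adjusted p under 0.05 in limma, with adjustment over all 18194 genes. The array medians lay between 8.73 and 8.98. The members were bright, with a median level of 12.06 against 9.86 for all genes, and 5 of the 49 lay within 1 of the highest value of the array on every pup heart array, 8 on every pup hippocampus array and 2 in each adult tissue.

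The DNA around the starts of some members is shown because it holds the pyrimidine run that defines the TOP class. The RefSeq promoter table (GRCm38.p6) held 43 of the 49 members. Each line gives 40 bases before and 20 bases after the annotated start, 5′ to 3′ on the strand of the gene, and capitals mark an unbroken run of at least 7 C or T that reaches within 5 bases of the start. The first 6 genes were lower in adults in both tissues, Rps6 was called in neither, and Rps16, which has no such run in this window, was higher in adult heart. The genes shown are a selection. Other members lower in both tissues, such as Rpl41, Rpl22 and Rps2, had no such run.
Rps18 (chr17:33955646-33955705, minus strand): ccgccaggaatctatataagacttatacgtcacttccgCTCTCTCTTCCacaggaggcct
Rpl38 (chr11:114668540-114668599, plus strand): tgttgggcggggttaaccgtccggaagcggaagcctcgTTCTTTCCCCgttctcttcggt
Rpl27a (chr7:109519155-109519214, plus strand): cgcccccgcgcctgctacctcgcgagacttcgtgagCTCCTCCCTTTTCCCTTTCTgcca
Rpl7a (chr2:26910767-26910826, plus strand): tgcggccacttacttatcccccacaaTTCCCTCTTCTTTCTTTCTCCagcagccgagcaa
Rpl13a (chr7:45128726-45128785, minus strand): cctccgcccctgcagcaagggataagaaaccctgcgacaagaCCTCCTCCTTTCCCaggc
Rplp2 (chr7:141447611-141447670, plus strand): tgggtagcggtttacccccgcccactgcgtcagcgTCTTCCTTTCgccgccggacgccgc
Rps6 (chr4:86857348-86857407, minus strand): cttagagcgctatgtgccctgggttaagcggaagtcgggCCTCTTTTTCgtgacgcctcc
Rps16 (chr7:28350649-28350708, plus strand): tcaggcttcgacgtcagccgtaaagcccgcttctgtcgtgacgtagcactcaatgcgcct

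Of the 43 members in the table, 21 (48.8%) had such a run at an annotated start, against 16.4% of all 27025 genes in it. The letters CCGGAAG, searched on both strands of the whole promoter window of that table, were present for 20 members (46.5%) and for 9.93% of all genes. In heart 13 of 21 with a run were lower in adults and 12 of 22 without, against 9.38% of all genes. In hippocampus 10 of 21 and 7 of 22 were lower, against 7.44%. The median differences with and without a run were -1.79 and -1.59 in heart. In hippocampus they were -0.72 and -1.16, the larger decrease being without a run. These counts describe letters in a fixed window, and annotated starts are not measured ones.

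In heart, ribosomal protein genes were mostly lower in adults. Of the 49 members, 31 were lower, 2 were higher (Rps16 and Rpl3l) and 16 were not called, with a median difference of -1.74. Over all genes 9.38% were lower and 11.2% higher in this comparison, with a median difference of 0.09. All adult hearts lay below all pup hearts for 33 members and above them for 5, against 22% and 26.7% of all genes. These calls rest on the limma fit, which shares its estimate of the spread across genes and across the 4 groups. The methods' t-test used only the groups compared. At a false discovery rate of 5% it called 0 members in heart and 10 lower in hippocampus. Limma on only the groups compared gave 24 members lower in heart and 23 in hippocampus. The share of all genes called is not given for either fit, so these counts have no background. The large subunit, with 16 of 26 lower and 1 higher, and the small subunit, with 15 of 22 lower and 1 higher, had median differences of -1.76 and -1.81.

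In hippocampus, 19 members were lower in adults, 0 were higher and 30 were not called, with a median difference of -1.18. Over all genes 7.44% were lower and 8.63% higher, with a median of 0.10. At an unadjusted p under 0.05, 27 members differed in hippocampus and 36 in heart. The share of all genes at that looser threshold is not given, and the shares above do not apply to it. All adult samples lay below all pup samples for 32 members and above them for 1, against 23.8% and 31.3% of all genes. The large subunit had 10 of 26 members lower and the small subunit 9 of 22. In both tissues 18 members were lower, which was 58.1% of the heart list and 94.7% of the hippocampus list, and Rps27 was lower only by the hippocampus test.

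The number of calls rested on both adult samples. Fewer members were called lower in a tissue when either of its adult samples was left out. The remaining adult sample was then assumed to vary like the other groups. A fit with 1 adult sample is less able to call any gene, and the share of all genes called is not given. The fall is therefore not shown to be particular to the members. Leaving out a pup sample gave 26 to 31 members lower in heart and 18 to 20 in hippocampus.

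**Figure D1:**
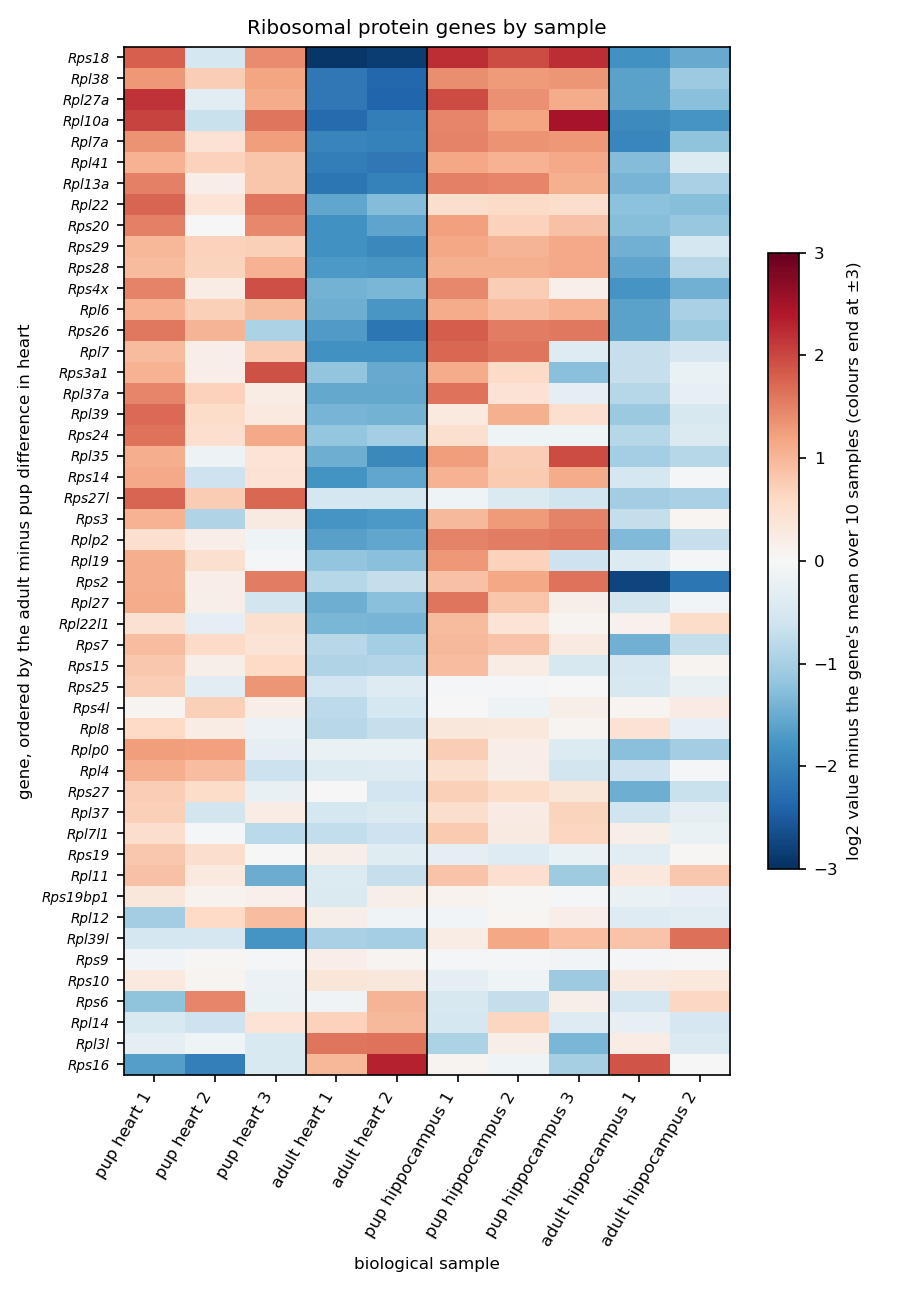
Heat map of the 49 genes (rows, ordered by the adult minus pup difference in heart) in each of the 10 biological samples (columns, with black lines between groups). Colour gives the log2 value minus the gene's mean over the 10 samples, and most upper rows are red in both pup tissues and blue in both adult tissues.

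Pup samples differed among themselves. The median deviation of the 49 members from their own means was 1.05, 0.21 and 0.40 in pup heart replicates 1, 2 and 3, and 0.93, 0.65 and 0.20 in pup hippocampus. It was -1.18 and -1.25 in the adult heart samples and -0.71 and -0.44 in the adult hippocampus samples. Every pup sample thus lay above every adult sample on this summary, while over all genes the same medians stayed between -0.11 and 0.08. Pup heart replicate 2 was the lowest of the 3 pup hearts for 28 of 49 members, against 30.5% of all genes.

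**Figure D2:**
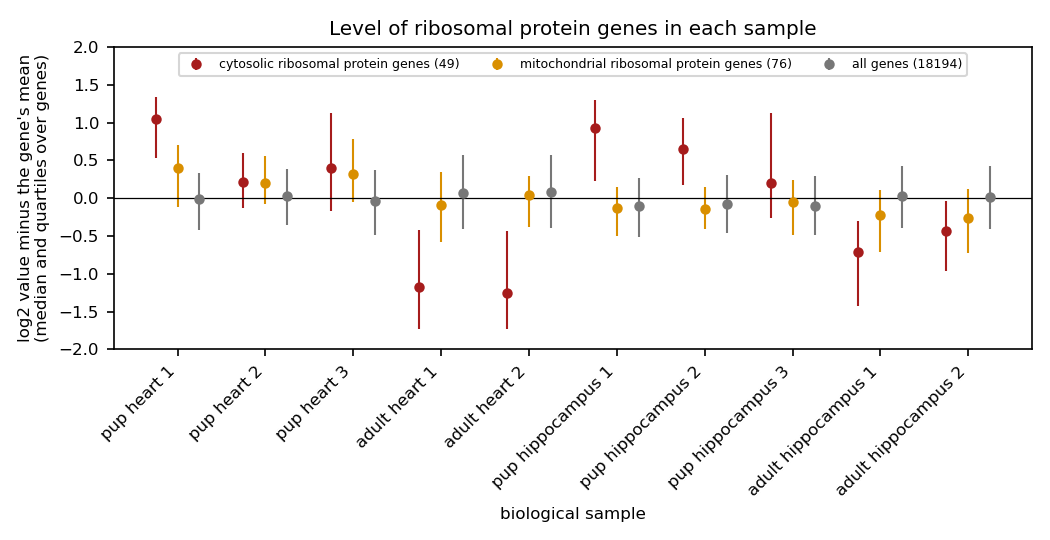
Median and quartiles over genes of the log2 value minus the gene's mean (y axis) in each biological sample (x axis), for the 49 cytosolic ribosomal protein genes, the 76 mitochondrial ribosomal protein genes and all 18194 genes. The cytosolic genes range from 1.05 in pup heart replicate 1 to -1.25 in adult heart replicate 2, and the other sets stay closer to 0.

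Rps18, a protein of the small-subunit head that touches the large subunit, had the largest difference in each tissue. Its values were 14.61, 12.27 and 14.24 in pup heart and 9.89 and 9.97 in adult heart. In hippocampus they were 15.03, 14.78 and 15.03 in pups and 11.003 and 11.30 in adults. All pup samples lay above all adult samples, also pup heart replicate 2, which was the lowest pup. The differences were -3.78 (SE 0.57, adjusted p = 0.0031) in heart and -3.80 (SE 0.57, adjusted p = 0.00414) in hippocampus, 13.7-fold and 13.9-fold lower. This probe set is of the _x_at type, and the brightest one of another type gave 0.94 (adjusted p = 0.244) in heart and 1.61 (adjusted p = 0.0682) in hippocampus, of the opposite sign and not called. Of all 6 Rps18 probe sets 5 had negative differences in each tissue and 4 were called lower, among them a dimmer _a_at set with -1.44 in heart and -1.36 in hippocampus.

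Rpl38, a small protein of the large subunit that is known for its part in translating Hox mRNAs in the embryo, was lower in adults in both tissues. It measured 15.33, 14.78 and 15.22 in pup heart and 11.90 and 11.69 in adult heart, a difference of -3.31 (SE 0.25, adjusted p = 0.000406). In hippocampus its values were 15.44, 15.32 and 15.36 in pups and 12.43 and 12.95 in adults, a difference of -2.69 (SE 0.25, adjusted p = 0.000834). The groups did not overlap in either tissue, and the gene has only this probe set, of the _x_at type.

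Rpl7a, Rpl27a and Rpl10a gave like results on probe sets of the _at or _a_at type, which were kept when the other types were left out. Rpl7a, a large-subunit protein, measured 15.29, 14.39 and 15.20 in pup heart against 11.97 and 11.94 in adult heart (-3.01, SE 0.33, adjusted p = 0.000879), and was 7.81-fold lower in adult hippocampus (adjusted p = 0.00127). Rpl27a measured 15.29, 12.79 and 14.26 in pup heart against 10.98 and 10.76 in adults, 9.46-fold lower (adjusted p = 0.00692), and 7.53-fold lower in hippocampus (adjusted p = 0.0139). For both genes the adult samples lay below every pup sample of their tissue. A second, dimmer Rpl27a probe set of the _at type differed by 0.06 in heart and 0.39 in hippocampus, neither called. The Rpl27a calls were lost when either adult sample of the tissue was left out, with adjusted p between 0.0501 and 0.0987.

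Rpl10a forms the mobile L1 stalk, over which the used tRNA leaves. Its values were 14.03, 11.33 and 13.62 in pup heart, 9.68 and 9.92 in adult heart, 13.47, 13.19 and 14.46 in pup hippocampus, and 10.09 and 10.22 in adult hippocampus. Adults lay below pups throughout, by 9.12-fold in heart (adjusted p = 0.0145) and 11.7-fold in hippocampus (adjusted p = 0.0126). Both calls were lost when either adult sample of the tissue was left out, with adjusted p between 0.0679 and 0.0954.

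Rps2 and Rps26, both of the small-subunit body and platform near the path of the mRNA, were among the largest differences in hippocampus. Rps2 has only 1 probe set, of the _x_at type. It measured 14.32, 14.59 and 15.06 in pup hippocampus and 10.69 and 11.27 in adults, a difference of -3.68 (SE 0.40, adjusted p = 0.00127). In heart it measured 14.54, 13.63 and 14.97 in pups and 12.57 and 12.72 in adults, a difference of -1.73 (SE 0.40, adjusted p = 0.0167). The adult groups of both tissues lay below the pups, and the adult hippocampus lay below the adult heart by 1.67 (difference -1.67, adjusted p = 0.0279), a call lost without any single one of the 4 adult samples. Rps26 measured 15.18, 14.91 and 14.95 in pup hippocampus against 11.77 and 12.26 in adults, 8.01-fold lower (adjusted p = 0.0134), a call also lost without either adult sample, and 5.57-fold lower in heart (adjusted p = 0.0218).

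The stalk that recruits elongation factors to the large subunit was measured through Rplp0, Rplp2 and Rpl12. Rplp2 measured 14.11, 13.80 and 13.48 in pup heart, 11.96 and 12.05 in adult heart, 15.08, 15.14 and 15.17 in pup hippocampus, and 12.28 and 12.90 in adult hippocampus. It was lower in adults by 3.46-fold in heart (adjusted p = 0.0028) and by 5.81-fold in hippocampus (adjusted p = 0.00114), and pup hippocampus lay 2.52-fold above pup heart (adjusted p = 0.00502). In none of these comparisons did the groups overlap. Rplp0, which anchors the stalk and serves as a reference gene in many assays, differed by -0.93 (95% interval -2.03 to 0.16, adjusted p = 0.212) in heart and by -1.33 (-2.43 to -0.23, adjusted p = 0.0956) in hippocampus, not called. Rpl12 at the stalk base differed by -0.13 and -0.41, also not called.

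At the exit of the peptide tunnel, Rpl19, Rpl35 and Rpl39 were all lower in adult heart, with differences of -1.74, -2.14 and -2.27, and of these Rpl35 alone was called in hippocampus (-2.26). The Rpl35 values came from an _x_at set, and without _s_at and _x_at sets they were -1.08 (adjusted p = 0.341) and -0.92 (adjusted p = 0.429), so both calls were lost. The Rpl39 call in heart was lost without either adult heart sample (adjusted p = 0.0547 and 0.0514). In the small-subunit head 6 of 10 members were lower and 1, Rps16, higher in adult heart, and 4 were lower in hippocampus. In the body and platform 7 of 10 were lower in heart and 5 in hippocampus, and over all genes 9.38% were lower in heart and 7.44% in hippocampus. Rpl11, which binds the 5S RNA, was the only member of that particle measured and differed by -0.44 in heart and 0.46 in hippocampus, neither called.

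The protein of Rps6 is the substrate of the S6 kinases, and its phosphorylation is the usual readout of mTOR signalling. The arrays measured RNA and not that readout. Rps6 was not called in any comparison. It measured 9.91, 12.59 and 10.92 in pup heart, 11.02 and 12.14 in adult heart, 10.64, 10.40 and 11.31 in pup hippocampus, and 10.62 and 11.74 in adult hippocampus. The groups overlapped in both tissues. The differences were 0.44 (95% interval -1.19 to 2.08) in heart and 0.40 (-1.24 to 2.03) in hippocampus, and a second probe set gave 1.04 and 0.85, not called.

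**Figure D3:**
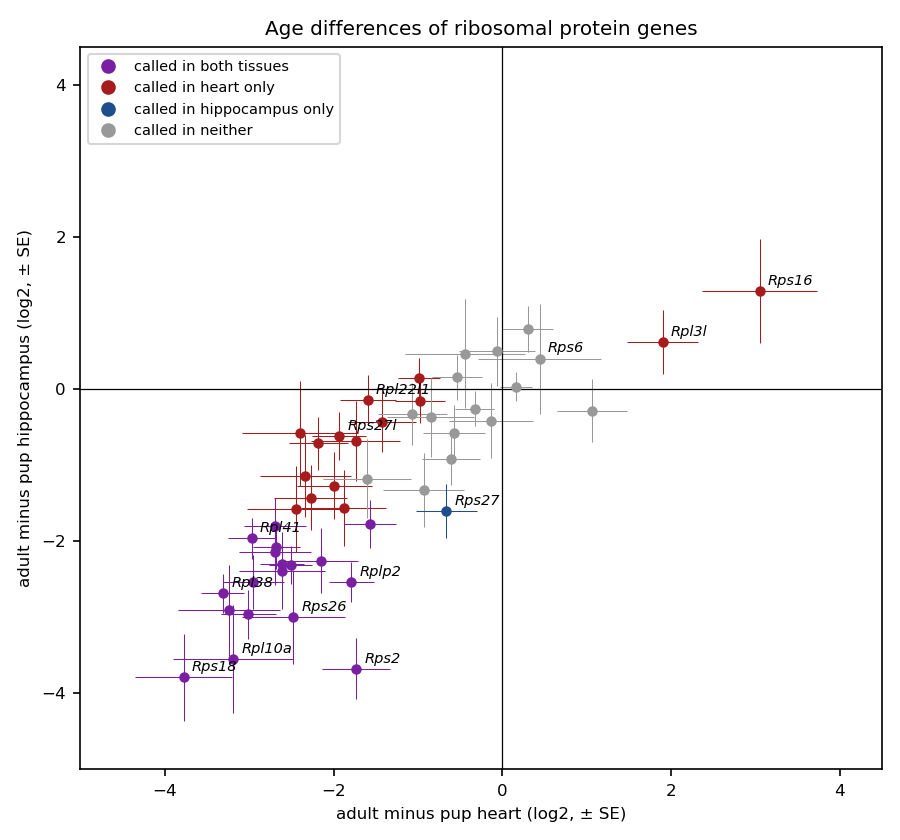
Adult minus pup difference in heart (x axis, log2) against that in hippocampus (y axis, log2) for each of the 49 genes, with bars of ± SE from limma and colours for the tissues in which a gene was called. Most points lie in the lower left, 18 genes are called in both tissues, and Rps16 and Rpl3l lie to the right.

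Among the 6 paralogues 3 were lower and 1 higher in adult heart, against 9.38% and 11.2% of all genes. In hippocampus 0 were called, against 7.44% of all genes lower and 8.63% higher, and 0 had an unadjusted p under 0.05. Rpl3l, the form of Rpl3 made in heart and skeletal muscle, measured 7.71, 7.85 and 7.51 in pup heart and 9.58 and 9.61 in adult heart. In hippocampus it measured 7.02, 8.15 and 6.60 in pups and 8.21 and 7.54 in adults. Adult heart lay above every other sample, by 1.90 over pup heart (SE 0.42, 3.73-fold, adjusted p = 0.0141), and adult hippocampus lay 3.3-fold below adult heart (adjusted p = 0.0299). Both calls were lost when any single adult sample that entered them was left out, with adjusted p from 0.0564 to 0.176, while the difference in heart stayed between 1.88 and 1.92.

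Rpl22l1 and Rpl22 form a pair of RNA-binding large-subunit proteins. Rpl22l1 measured 10.94, 10.22 and 10.96 in pup heart, 9.12 and 9.10 in adult heart, 11.43, 10.91 and 10.57 in pup hippocampus, and 10.62 and 11.03 in adult hippocampus. Adult heart lay below all other samples, 3.02-fold below pup heart (adjusted p = 0.0105) and with adult hippocampus 3.28-fold above it (adjusted p = 0.0109), whereas the age difference in hippocampus was -0.14 and not called. The call in heart was lost without either adult heart sample (adjusted p = 0.0693 and 0.0661), and the call between adult tissues without adult heart replicate 1 or 2 or adult hippocampus replicate 2 (adjusted p from 0.0583 to 0.0807). Rpl22 was lower in adults in both tissues, 6.47-fold in heart (adjusted p = 0.00218) and 3.48-fold in hippocampus (adjusted p = 0.0136), on an _s_at set. Its _at set gave -1.90 in heart (adjusted p = 0.00298) and -0.67 in hippocampus (adjusted p = 0.144), and the hippocampus call was also lost without either adult sample (adjusted p = 0.0838 and 0.0772).

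Rpl39l, known from the testis, was called between the tissues and not between the ages. It measured 11.50, 11.53 and 10.26 in pup heart, 11.06 and 11.01 in adult heart, 12.25, 13.17 and 12.92 in pup hippocampus, and 12.88 and 13.68 in adult hippocampus. All hippocampus samples lay above all heart samples, by 3.22-fold in pups (adjusted p = 0.0207) and 4.72-fold in adults (adjusted p = 0.013), and its age differences of -0.06 and 0.49 were not called. The pup call was lost without pup hippocampus replicate 2 or 3 (adjusted p = 0.0788 and 0.0682), and the adult call without adult heart replicate 1 or 2 or adult hippocampus replicate 2 (adjusted p from 0.0648 to 0.0987). Its partner Rpl39 was 4.83-fold lower in adult heart (adjusted p = 0.00731) and differed by -1.43 in hippocampus (adjusted p = 0.0519).

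Rps27l, a target of p53, was highest in pup heart. Its values there were 11.41, 10.43 and 11.39, against 9.14 in each adult heart sample, 9.54, 9.24 and 9.08 in pup hippocampus, and 8.63 and 8.71 in adult hippocampus. Pup heart lay above every other sample, 3.83-fold above adult heart (adjusted p = 0.00427) and 3.47-fold above pup hippocampus (adjusted p = 0.00258). Rps27 was lower in adult hippocampus by 3.04-fold (adjusted p = 0.0186) and differed by -0.67 in heart (adjusted p = 0.229). Rps4l was 1.98-fold lower in adult heart (adjusted p = 0.0249). Its partner Rps4x was lower by 6.09-fold in heart (adjusted p = 0.00846) and 5.25-fold in hippocampus (adjusted p = 0.0155). Rpl7l1 was not called on its brightest set. A dimmer _at set of it was lower in adult than in pup hippocampus (-0.99, adjusted p = 0.0488 over all probe sets). Another was lower in hippocampus than in heart, by -2.69 in pups (adjusted p = 0.0148) and -3.92 in adults (adjusted p = 0.00519). The Rpl7l1 partner Rpl7 was 5.47-fold lower in adult heart (adjusted p = 0.017) and not called in hippocampus. The Rpl7 set is of the _x_at type, and without such sets its heart difference was -0.60 (adjusted p = 0.296). The calls of Rps4l and Rpl7 in heart and of Rps4x in both tissues were lost without either adult sample of the tissue, and that of Rps27 without adult hippocampus replicate 1 (adjusted p = 0.151) or pup hippocampus replicate 1 (adjusted p = 0.0526).

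**Figure D4:**
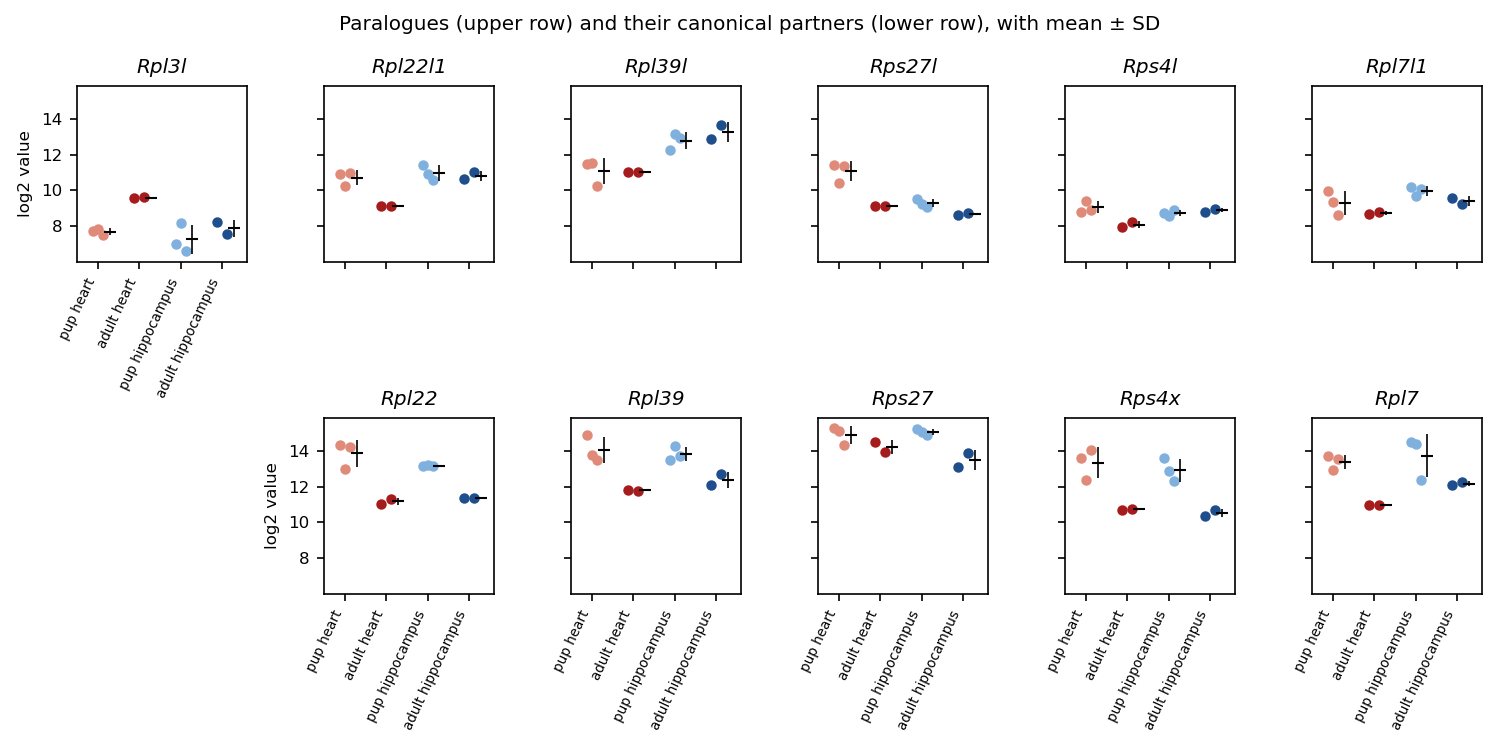
Log2 values (y axis) of the 6 paralogues (upper row) and the 5 measured partners (lower row) in pup heart, adult heart, pup hippocampus and adult hippocampus, with a point per biological sample and bars for mean ± SD (3 pup samples, 2 adult samples). Rpl3l stands highest in adult heart, Rps27l in pup heart and Rpl39l in both hippocampus groups.

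Rps16, a small-subunit head protein, was the largest increase in adult heart. Its only probe set measured 5.51, 5.11 and 6.71 in pup heart and 8.17 and 9.49 in adult heart, a difference of 3.05 (SE 0.68, adjusted p = 0.0145). Adult hippocampus measured 9.06 and 7.16 against 7.26, 7.03 and 6.18 in pups, which overlapped. The signal was low for this family, below the array median in both pup tissues. Technical arrays differed by up to 3.83 for this probe set, in adult hippocampus replicate 2 (9.08 and 5.25). The median over members of the largest such difference was 0.52. In adult heart the arrays measured 8.50 and 7.84 in replicate 1 and 9.89 and 9.09 in replicate 2. Without adult heart replicate 2 the call in heart was lost, at a difference of 2.39.

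Between the tissues of one age few members differed. Of the 49, Rps27l was lower and Rpl39l and Rplp2 were higher in the hippocampus of pups, and over all genes 7.43% were lower and 8.27% higher. Between the adult tissues Rpl3l and Rps2 were lower in hippocampus, and Rpl39l, Rpl22l1 and Rpl41 were higher, against 10.2% and 9.46% of all genes. The Rpl41 call (1.26, adjusted p = 0.0189) was lost without adult heart replicate 1 or 2 or adult hippocampus replicate 2 (adjusted p from 0.0783 to 0.121). The median difference of the members was 0.15 in pups and 0.51 in adults, against -0.10 and -0.03 for all genes.

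The age difference in heart was compared with that in hippocampus as an interaction. By limma 0 members were called in either direction, against 1.23% and 2.45% of all genes, and 7 members had an unadjusted p under 0.05 (Rps2, Rps4l, Rpl22l1, Rps24, Rps27l, Rpl41 and Rpl14). The largest was Rps2, measured by an _x_at set alone, at 1.95 (95% interval 0.67 to 3.23, adjusted p = 0.0967). For Rpl22l1 the value was -1.45 (-2.51 to -0.40, adjusted p = 0.124). Genes called in 1 tissue alone are therefore not shown to differ between the tissues. With each adult array taken as a replicate of its own, 3 members were called lower and 1 higher. No share of all genes is given for that fit or for the unadjusted p. The interaction shares samples with each age comparison.

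The probe set type moved with the result. Names ending in _at mark probes meant for 1 transcript, _a_at for transcripts of 1 gene, _s_at for probes shared among genes and _x_at for probes that can bind other sequences. The 49 members had 104 probe sets, of which 61 were lower and 3 higher in adult heart, against 8.36% and 11.7% of all probe sets. By type, 34 of 40 _x_at sets and 18 of 28 _a_at sets were lower, but 7 of 33 _at sets, with 3 higher. In hippocampus 43 of the 104 were lower and 2 higher, against 6.57% and 8.39% of all probe sets, with 25 of 40 _x_at sets and 4 of 33 _at sets lower. Over the whole array the share lower in adult heart was 21.5% for _x_at and 6.34% for _at. A further 110 probe sets named a gene of this family together with other genes, and 67 of them were lower and 4 higher in adult heart, and 50 and 4 in hippocampus.

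Without _s_at and _x_at probe sets 44 members remained, since Rpl37, Rpl38, Rps2, Rps14 and Rps29 had no other probe set. In adult heart 21 were then lower and 3 higher, with a median of -1.03, against 8.63% and 11.2% of all genes. In hippocampus 10 were lower and 2 higher, with a median of -0.55, against 6.7% and 8.42%. All 21 and all 10 were also lower with the brightest probe set. Between pup tissues 4 members were then lower in hippocampus and 2 higher, against 7.31% and 8.08% of all genes, and between adult tissues 1 was lower and 3 higher, against 10.3% and 9.53%.

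Probe sets of one gene disagreed in some cases. Of 23 members with several probe sets, 13 had negative differences throughout in heart, 1 had positive ones throughout and 9 had both, with the same 3 counts in hippocampus. Rpl41, a very short protein at the contact of the subunits, was the only member called in both directions. Its brightest probe set measured 15.66, 15.31 and 15.44 in pup heart and 12.53 and 12.46 in adult heart, 7.85-fold lower (adjusted p = 0.000577), and was 3.9-fold lower in hippocampus (adjusted p = 0.00316). Its _at probe set was dimmer, at 7.20, 6.75 and 6.77 in pup heart and 8.49 and 8.24 in adult heart, and gave 1.46 (adjusted p = 0.00523) in heart and 0.94 (adjusted p = 0.0356) in hippocampus. Groups did not overlap on either probe set, in opposite directions. In every sample the _at set lay below the lowest array median of 8.73, so its increase is one of weak signal.

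Rpl13a, a regulator of inflammatory mRNAs outside the ribosome and a common reference gene, was 7.73-fold lower in adult heart on the brighter of its 2 _x_at sets (adjusted p = 0.00143), at 15.18, 13.88 and 14.49 in pups and 11.50 and 11.63 in adults. The brighter of its 2 _a_at sets measured 13.04, 13.11 and 12.002 in pups and 13.21 and 13.37 in adults, a difference of 0.57 (adjusted p = 0.337). The dimmer sets gave -0.81 (_x_at) and 0.36 (_a_at), neither called. For Rps9 and Rps10 the brightest sets gave no call. Their brightest sets lay between 13.83 and 15.57 in every sample and were not called, while other sets of Rps10 were lower in adult heart, with differences from -1.65 to -2.06 (4 of 6 sets called), and the _x_at set of Rps9 differed by -2.26 there. Leaving out the shared types gave Rps9 a difference of 0.96 in hippocampus (adjusted p = 0.0389), a call that the brightest probe set (0.03) did not give.

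**Figure D5:**
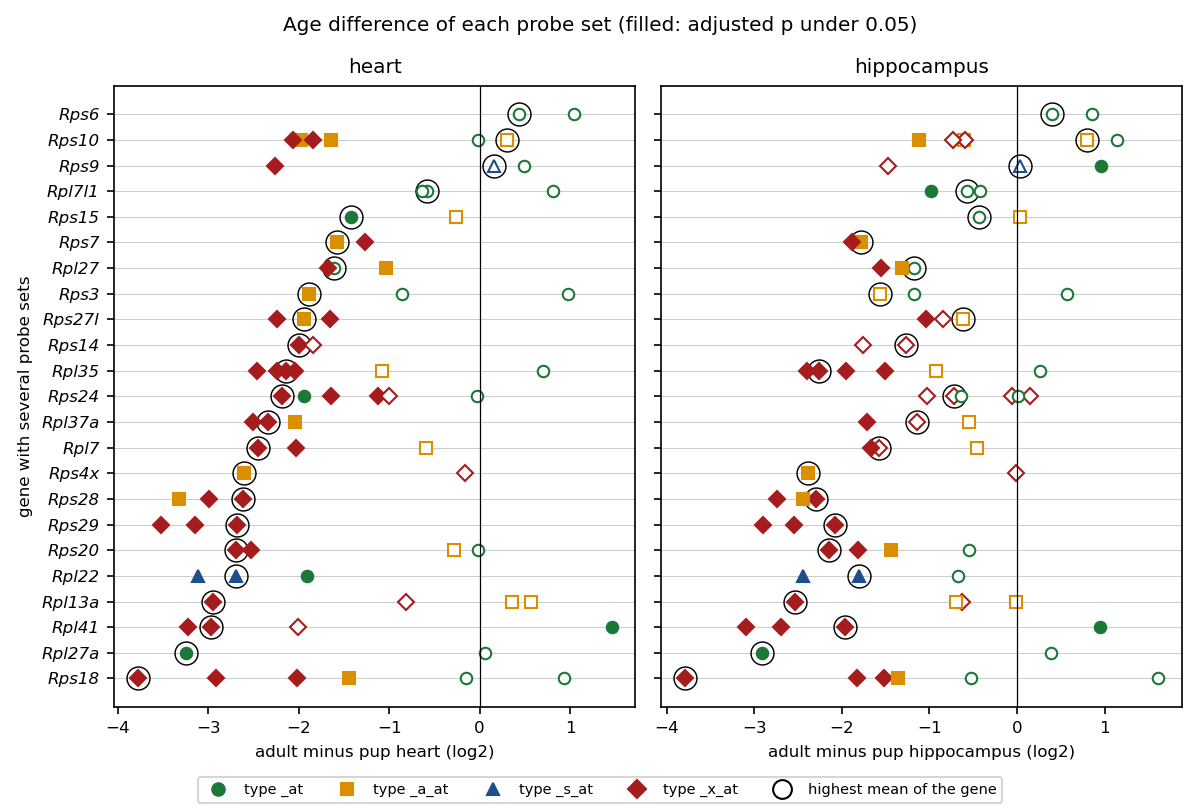
Adult minus pup difference (x axis, log2) of every probe set of the 23 genes with several probe sets (y axis), in heart (left) and hippocampus (right). Marker shape gives the probe set type, filled markers passed adjusted p under 0.05 over all probe sets, and rings mark the set used for the gene. Diamonds (_x_at) lie mostly to the left and circles (_at) mostly nearer to 0 or to the right.

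The array controls of 2 kinds lay at different levels. The 18 hybridization controls, bacterial and phage transcripts added just before hybridization, averaged 13.16 in pup heart and 10.73 in adult heart, and 13.15 and 10.80 in hippocampus. All 18 were lower in adults in both tissues, with mean differences of -2.43 and -2.35, and 15 members in heart and 10 in hippocampus had differences further below 0 than these. The 27 probe sets for poly-A controls, which can be added to RNA before labelling, averaged 7.62 in pup heart and 8.11 in adult heart. In hippocampus they averaged 7.62 in pups and 7.88 in adults. These means lay below the array medians, and the methods do not mention adding such controls. The poly-A probe sets differed by 0.50 in heart and 0.27 in hippocampus, with 5 and 9 of them lower in adults. The 4398 genes with a mean of 12 or more had median differences of -0.01 in heart and 0.15 in hippocampus, and the 26 members at that level had -2.37 and -1.79. The part of either control shift in the members' difference was not tested.

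Markers of heart muscle and brain were checked against the labels. The 12 heart muscle genes averaged 14.17 to 14.75 in pup heart samples and 13.22 to 13.54 in adult heart, against 9.06 to 9.28 in adult hippocampus. In pup hippocampus they averaged 9.54 to 11.06, and Myl2, the ventricular light chain, measured 11.15, 8.90 and 7.27 there against 6.44 and 6.76 in adult hippocampus, so that replicate 1 carried the most heart signal. Without it 18 members were lower in adult hippocampus. Of 12 neuronal genes 4 were higher in the hippocampus of pups and 5 in that of adults than in heart, and of 9 glial genes 5 and 4. Of 8 fibroblast markers 6 were lower in adult heart (sample means of 12.93 to 13.72 in pups and 10.51 to 10.53 in adults), as were 4 of 7 endothelial markers. In adult hippocampus 3 and 1 of them were lower. Of the 12 heart muscle genes 4 were lower in adult heart and 2 in adult hippocampus. In adult hippocampus 3 neuronal genes were lower and 1 higher, and 2 glial genes were lower and 1 higher. Over all genes 9.38% were lower and 11.2% higher in adult heart, and 7.44% and 8.63% in adult hippocampus. Of 4 red cell genes 2 were higher in adult heart. The part of these cell types in the ribosomal protein result was not tested.

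Ribosomal subunits under other symbols gave values of the same kind. Rpsa, a small-subunit protein also known as a laminin receptor, was 2.93-fold lower in adult heart (adjusted p = 0.0093) and 9.13-fold lower in adult hippocampus (adjusted p = 0.000873). Fau, whose product is cut into a ubiquitin-like peptide and Rps30, was 2.77-fold lower in heart (adjusted p = 0.0109) and not called in hippocampus.

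Of 16 translation factors and other genes with TOP mRNAs, 9 were lower in adult heart and 6 in hippocampus, with 0 higher and median differences of -1.18 and -0.78, against 9.38% and 7.44% of all genes lower and 11.2% and 8.63% higher. Eef1a1, which carries aminoacyl-tRNA to the ribosome, measured 15.36 ± 0.30 in pup heart and 11.66 ± 0.15 in adult heart (mean ± SD, n = 3 and n = 2), 13-fold lower in the limma fit (adjusted p = 0.000406), and was 2.81-fold lower in hippocampus (adjusted p = 0.0108). Npm1, a nucleolar chaperone of ribosome assembly, was 3.79-fold lower in heart (adjusted p = 0.00473) and 4.04-fold in hippocampus (adjusted p = 0.00523), and Eef1b2 3.08-fold and 3.63-fold lower (adjusted p = 0.0327 and 0.0242).

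Of 45 genes of ribosome biogenesis 6 were lower and 1 higher in adult heart, and 8 were lower and 0 higher in hippocampus, with medians of -0.10 and 0.06. Over all genes 9.38% and 7.44% were lower and 11.2% and 8.63% higher, so the heart count is near the background. The largest decreases in heart were Rpf2, Bms1 and Polr1d (-3.23, -2.77 and -2.60), and Nolc1 was higher (1.77, adjusted p = 0.0367). In hippocampus they were Nop10, Bms1 and Rpf2 (-3.30, -2.92 and -2.81). Of 13 growth signalling genes Rheb and Eif4ebp1 were lower in adult heart (-1.78 and -1.67) and Eif4e in hippocampus (-2.21). A further 6 genes had symbols beginning Rps6k (Rps6ka3, Rps6ka5, Rps6ka6, Rps6kb2, Rps6kc1 and Rps6kl1). Among these Rps6ka6 was higher in adult heart (1.40), against 11.2% of all genes. The 76 mitochondrial ribosomal proteins, which build a separate ribosome, had 14 lower and 2 higher in adult heart and 8 and 2 in hippocampus, with medians of -0.37 and -0.08, against 9.38% and 7.44% of all genes lower and 11.2% and 8.63% higher.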

How the data were processed

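RNA from heart and hippocampus of pups and adults was measured on 14 arrays. The authors deposited log2 expression values per probe set, summarised by RMA 2.0 per the submitters' processing notes, and these were used as deposited. Their methods also describe median centring and scaling by range, which the deposited values do not show (10th to 90th percentile ranges of 6.30 to 6.59), so it was run as an alternative. Arrays give no read depth, and precision is limited by the number of arrays.

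The arrays of each adult sample were averaged, giving 3 samples per pup group and 2 per adult group. Probe sets naming several genes were left out (932 of 45101), and each gene took its probe set with the highest mean. All 4 groups were fitted together with limma 3.58.1 in R 4.3.3 (lmFit and eBayes, 6 residual degrees of freedom), with Benjamini-Hochberg adjustment over all genes for each of 5 contrasts. The script was tested on simulated data.

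Genes named were the 8 largest decreases and 4 largest increases called without overlap for each age contrast, the 5 largest each way for each tissue contrast, the paralogues and their partners, Rps6, the P-stalk genes, members whose call changed direction without _s_at and _x_at probe sets, and up to 3 called genes each way from the other lists. Others, such as Rpl11, Rpl12, Rpl19, Rpl35, Rps9, Rps10 and Myl2, were picked once their values had been seen. The members and lists were chosen with earlier results of these data known. The fit over all probe sets was added after seeing the data.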

Additional observations from a re-analysis of the deposited data

How the results depend on the processing

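Cyclic loess, quantile normalization, centring with or without range scaling and the fit over all probe sets (added after seeing the data) left the counts of members lower in adults within 1.5 times the reported ones in both tissues. Without _s_at and _x_at probe sets the counts were 10 lower and 2 higher in adult hippocampus, 4 lower in pup hippocampus against pup heart, and 1 lower in adult hippocampus against adult heart. The methods' t-test at a false discovery rate of 5% called 0 lower and 0 higher in adult heart, 10 lower in adult hippocampus, 0 lower and 1 higher between pup tissues, and 0 and 0 between adult tissues, and at 0.1% it called 0 in every comparison. With each adult array as a replicate, 1 member was higher in adult hippocampus, 2 were lower between pup tissues, 4 lower and 12 higher between adult tissues, and 3 lower and 1 higher in the interaction. With all arrays and the adult replicate as a random block these were 1, 2, 11 higher between adult tissues, and 2 lower and 1 higher in the interaction. Fitting only the groups compared gave 1 higher between pup tissues, and 4 lower and 9 higher between adult tissues. Leaving out the 25% of genes with the lowest means gave 0 higher in adult heart and 1 lower between adult tissues. The mean over probe sets, median centring and a limma trend each gave 5 higher between adult tissues. The cause was not tested. The share of all genes called is not given for most of these fits, nor for those below that leave out 1 sample.

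Leaving out 1 sample at a time gave 13 to 31 members lower and 0 to 3 higher in adult heart, 10 to 20 lower and 0 higher in adult hippocampus, 1 to 4 lower (4 without pup heart replicate 2, 2 without replicate 3) and 1 to 3 higher between pup tissues, 0 lower and 0 to 4 higher between adult tissues, and 0 to 2 lower (2 without pup heart replicate 2) and 0 to 1 higher in the interaction.

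Signs reversed without _s_at and _x_at probe sets for Rps18 (0.94 in heart, 1.61 in hippocampus), Rpl41 (1.46 and 0.94) and Rpl13a (0.57 in heart). When 1 sample was left out, signs reversed for differences that were not called: Rpl22l1 in hippocampus (-0.35 to 0.089, above 0 without adult replicate 1, at 0.06, and without pup replicate 1), Rpl39l in heart (-0.48 to 0.16, above 0 without pup replicate 1, at 0.14, and pup replicate 2), and Rps6 in heart (-0.17 to 1.17, below 0 without pup replicate 1 and, at -0.12, adult replicate 2) and in hippocampus (-0.16 to 0.96, below 0 without adult replicate 2).

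Heart and hippocampus samples share replicate numbers, which were not taken as pairs. Deviations of same-numbered samples correlated over genes with r of 0.20, -0.09 and 0.00 in pups and -0.06 in adults. With 2 adult samples in a group both adult numbers must give the same r. So few samples cannot show whether the numbers mark pairs. With a replicate block 2 members were lower and 2 higher between pup tissues, 2 and 4 between adult tissues, and 0 and 0 in the interaction.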
